A study of Mus musculus with 16 samples.

Results

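Flt3, Kit, Csf1r, Cd34 and Prom1 are surface proteins by which early blood progenitors are recognised, and their transcripts were followed here in B-lineage cells of fetal liver and adult bone marrow. The genes were taken by name, and every probe that the array files assigned to one of them by accession, symbol or synonym was used and kept apart. These 5 of 17609 genes named on the array had 8 probes among 41174, 1 each for Flt3, Kit and Cd34, 3 for Csf1r and 2 for Prom1. Of these, 6 passed the filter on dim probes, together with 27522 probes in all. Both Prom1 probes failed it.

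The study profiled B-lineage cells of BALB/c mice at a pair of sorted stages that the labels call Fr.A and Fr.B/C. Hardy's nomenclature calls cells of fraction A pre-pro-B and those of fractions B and C pro-B. The 4 groups were fetal liver Fr.B/C, fetal liver Fr.A, bone marrow Fr.B/C and bone marrow Fr.A, with 4 arrays each. A fetal liver sort used the livers of 1 litter at day 16 of gestation, on average 8 embryos, and a bone marrow sort pooled 16 female adult mice. Each of 4 sorts per tissue gave 1 sample of each stage, so a sample is a pool of animals and carries no spread between individuals. The labels name no mutation and no treatment. Each array set a sample against a common reference, total RNA of 6 cell lines, in a second dye. Levels are therefore log2 ratios of sample over reference, and a level of 1 gene's probe cannot be set against that of another. In RNA of sorted pools, fewer cells with a transcript and less transcript per cell cannot be told apart.

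Flt3, Kit and Csf1r belong to 1 family, the class III receptor tyrosine kinases. Each is switched on by a cytokine that pairs receptor molecules, Flt3 by Flt3 ligand, Kit by stem cell factor, Csf1r by Csf1 or by the cytokine Il34, and each then signals through phosphatidylinositol 3-kinase, Ras and Stat proteins. In mouse lymphopoiesis Flt3 marks multipotent and lymphoid progenitors and is silenced as cells commit to the B lineage under Pax5. Kit marks stem cells and persists into the pro-B stage. Csf1r is the receptor of the mononuclear phagocyte lineage, and it is also known from fetal progenitors with both myeloid and B-cell potential. Cd34 is a sialomucin of progenitors and endothelium, and Prom1 (CD133) is a pentaspan membrane protein of some stem cells.

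The 250 bases before the annotated start of Flt3, Cd34 and Kit are shown from RefSeq on GRCm38.p6. Flt3 and Cd34 fell together between the stages, while the smaller fall of Kit passed the main test in neither tissue. Capitals mark matches on either strand to GAGGAA (a core of PU.1 sites), TGTGGT (Runx), CANNTG (the E-box), GATAA (the motif of erythroid zinc finger factors), GGGCGG (Sp1) and CCCNNGGGA (Ebf1). No match overlapped another. Flt3 lies at chr5:147400490-147400739 on the minus strand, Cd34 at chr1:194938571-194938820 on the plus strand and Kit at chr5:75574737-75574986 on the plus strand.
Flt3: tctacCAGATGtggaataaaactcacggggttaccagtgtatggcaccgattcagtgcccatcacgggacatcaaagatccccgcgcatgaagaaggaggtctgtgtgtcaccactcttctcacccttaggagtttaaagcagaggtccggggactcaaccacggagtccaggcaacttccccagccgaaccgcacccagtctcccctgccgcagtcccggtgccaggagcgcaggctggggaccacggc
Cd34: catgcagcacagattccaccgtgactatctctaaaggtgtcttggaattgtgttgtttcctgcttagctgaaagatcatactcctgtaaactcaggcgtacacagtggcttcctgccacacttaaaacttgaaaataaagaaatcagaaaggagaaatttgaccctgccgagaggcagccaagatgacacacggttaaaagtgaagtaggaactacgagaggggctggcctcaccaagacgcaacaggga
Kit: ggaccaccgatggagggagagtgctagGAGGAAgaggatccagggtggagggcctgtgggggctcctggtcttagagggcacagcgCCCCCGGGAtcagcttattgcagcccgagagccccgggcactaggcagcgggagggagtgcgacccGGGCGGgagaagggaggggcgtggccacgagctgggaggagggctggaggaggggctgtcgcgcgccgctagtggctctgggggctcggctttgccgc
The Kit window held 1 GAGGAA, 1 CCCNNGGGA and 1 GGGCGG, which begin 223, 164 and 98 bases before the start. The Flt3 window held 1 CANNTG, which begins 245 bases before it, and the Cd34 window held none of the 6 motifs. Of 32851 windows of the same length in the table, 23.3% held GAGGAA, 14% TGTGGT, 66.2% CANNTG, 22.6% GATAA, 32.7% GGGCGG and 5.60% CCCNNGGGA. The G+C content was 59.2% for Flt3, 46.4% for Cd34 and 70.8% for Kit, against a median of 52.4% over the windows. A match describes letters only and says nothing of a factor being bound.

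The median sample signal of an array ran from 71.2 to 162 (intensity), and 52.9% to 68.3% of probes were well above background. Of 16 measured B-lineage markers, 15 to 16 were well above background on every array. Measured probes had passed the filter on dim probes, so such counts do not tell lineages apart. They were 9 to 11 of 11 for T-lineage markers and 11 to 15 of 15 for monocyte and granulocyte markers. Cd79a, a signalling chain of the B-cell receptor complex, had a log2 ratio of 2.59 ± 0.10 in fetal liver Fr.B/C and 1.29 ± 0.34 in fetal liver Fr.A (SD, n = 4 each). In bone marrow the Cd79a log2 ratios were 2.95 ± 0.09 in Fr.B/C and 0.99 ± 0.26 in Fr.A (SD, n = 4 each). The Pax5 probe failed the filter. Within a group, arrays 1 and 2 resembled each other, as did arrays 3 and 4, with residual correlations of 0.48 to 0.79 across genes. The exception was fetal liver Fr.A, where arrays 1 and 2 correlated at -0.04. Other pairs of arrays ran from -0.87 to -0.54. Residuals cancel out over the 4 arrays of a group, which by itself lowers such correlations. Fetal liver arrays 1 and 2 were scanned in 1 session and arrays 3 and 4 in another, bone marrow arrays were scanned in 4 further sessions, and the tissues never shared a session. For every comparison of the tissues, tissue and scan session therefore cannot be told apart. If arrays 1 and 2, and arrays 3 and 4, are dye-swapped repeats of 1 sort, which the labels do not say, each group holds fewer independent samples than 4. The p-values of a fit on 1 such pair per group would then measure only the spread between repeats. No sort or session links the array numbers across the tissues. Setting arrays 1 and 2 of the tissues against each other, or arrays 3 and 4, is therefore an arbitrary match.

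Tests are limma's, over all 27522 probes with Benjamini-Hochberg adjustment, and a difference was called at an adjusted p under 0.05. Differences are in log2 units with the model's standard error (SE). All probes together were called in either direction at 28% between the tissues in Fr.A, 28.1% in Fr.B/C, 22.2% for the fetal liver step from Fr.A to Fr.B/C, 31.4% for the bone marrow step and 6.74% for the difference between the steps. In fetal liver, 3 of the 4 genes with a tested probe fell at their leading (brightest) probe in Fr.B/C relative to Fr.A and none rose, where 12.2% of all probes were called lower. In bone marrow the same 3 genes fell, where 17.2% of all probes were called lower. Fetal liver exceeded bone marrow for 2 of the 4 genes in Fr.A, Csf1r and Kit, where 12.4% of all probes were called higher. It also did for 2 in Fr.B/C, Kit and Cd34, where 13.4% were. The step from Fr.A to Fr.B/C differed between the tissues for 1 of the 4 genes, Csf1r, where 2.94% of all probes had a lower (more negative) step in fetal liver and 3.8% a higher one.

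**Figure D1:**
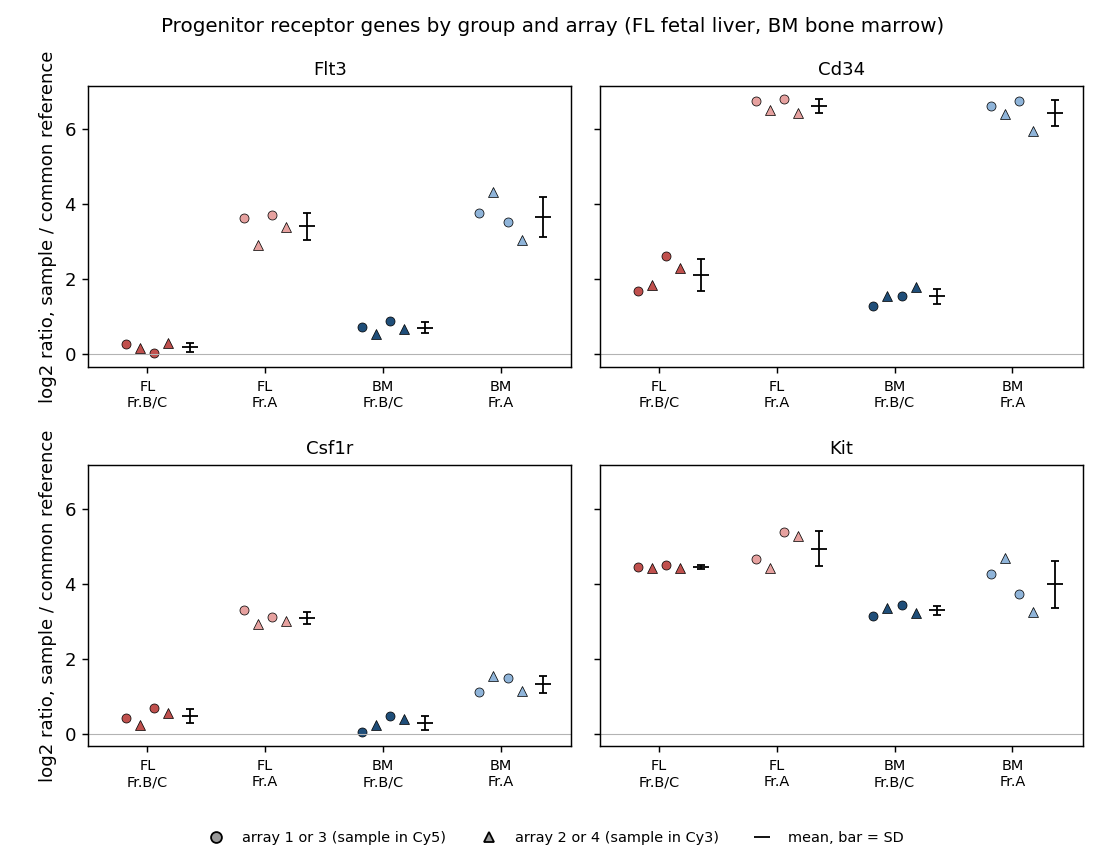
Log2 ratio of sample over common reference (vertical axis) of Flt3, Cd34, Csf1r and Kit on each of 16 arrays, by group, with fetal liver (FL) left of bone marrow (BM) and Fr.B/C left of Fr.A; circles are arrays with the sample in Cy5, triangles those with it in Cy3, and the bars give the mean and SD of 4 arrays. Flt3 and Cd34 separate the stages in both tissues, Csf1r stands highest in fetal liver Fr.A at a mean of 3.09, and Kit stays above 3 on every array.

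Cd34 was far lower in Fr.B/C than in Fr.A in both tissues. Its log2 ratios in fetal liver were 1.68, 1.83, 2.61 and 2.30 on arrays 1 to 4 of Fr.B/C and 6.77, 6.52, 6.82 and 6.44 on those of Fr.A. In bone marrow they were 1.29, 1.54, 1.54 and 1.79 in Fr.B/C and 6.62, 6.41, 6.77 and 5.95 in Fr.A. In each tissue every Fr.B/C array lay far below every Fr.A array, which was so for 23.9% of all probes in fetal liver and 29.2% in bone marrow counting gaps in either direction. Cd34 fell by 4.53 ± 0.19 (SE, adjusted p = 2.7e-10) in fetal liver Fr.B/C, a 23.1-fold lower ratio. In bone marrow Fr.B/C it fell by 4.90 ± 0.19 (SE, adjusted p = 8.62e-11), a 29.8-fold lower ratio. The difference between these steps was 0.37 ± 0.28 (SE, adjusted p = 0.503). The sample channel itself showed the drop, with intensities of 181 to 260 in Fr.B/C and 12365 to 16701 in Fr.A of fetal liver. In bone marrow it read 153 to 259 in Fr.B/C and 10832 to 14632 in Fr.A.

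The reference channel of the Cd34 spot was not constant although the reference RNA was the same. It was well above background on 0 of the 8 Fr.B/C arrays (59.0 to 88.5) and on 8 of the 8 Fr.A arrays (140 to 250). The part of this shift in the size of the Cd34 ratios was not tested. With the scanner software's processed signals, the steps were -1.95 (adjusted p = 9.18e-05) in fetal liver and -2.70 (adjusted p = 3.37e-06) in bone marrow. In the authors' deposited table of log2 ratios, fitted in the same way, they were -3.06 (adjusted p = 8.65e-08) and -3.44 (adjusted p = 1.87e-08) for the same tissues. The fall was called in each of these settings, and its size was not settled. Between the tissues, Cd34 in Fr.A differed by 0.20 ± 0.19 (SE, adjusted p = 0.507), and the arrays of the groups overlapped. In Fr.B/C fetal liver was higher by 0.57 ± 0.19 (SE, adjusted p = 0.0413), a 1.48-fold difference, but the call did not survive the replicate block (adjusted p = 0.0631), and leaving out 1 array ended it in 8 of 16 cases, with adjusted p up to 0.145. These were bone marrow Fr.B/C arrays 1, 2 and 3, fetal liver Fr.A arrays 1, 3 and 4 and fetal liver Fr.B/C arrays 3 and 4, each left out in turn.

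Endothelial cells also carry Cd34. Of 12 measured endothelial markers, 2 rose and 4 fell in fetal liver Fr.B/C and 3 rose and 3 fell in bone marrow Fr.B/C, with median differences of -0.05 and -0.09. Over all probes, 10% rose and 12.2% fell in fetal liver, and 14.2% rose and 17.2% fell in bone marrow. Their summed intensity was 5951 to 6664 in fetal liver Fr.B/C and 13351 to 19685 in fetal liver Fr.A, against 5782 to 8628 in bone marrow Fr.B/C and 12892 to 19204 in bone marrow Fr.A. Egfl7, a secreted endothelial factor that blood progenitors express too, fell by 1.66 ± 0.14 (SE, adjusted p = 3.19e-07) in fetal liver and 1.61 ± 0.14 (SE, adjusted p = 3.16e-07) in bone marrow, while the receptor Kdr rose by 1.80 (adjusted p = 3.45e-06) and 0.95 (adjusted p = 0.00103) in those tissues. Cdh5 (VE-cadherin), a defining endothelial gene, had steps of -0.08 (adjusted p = 0.614) in fetal liver and 0.02 (adjusted p = 0.89) in bone marrow. The part of endothelial RNA in the Cd34 values was not tested.

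Flt3 behaved like Cd34 across the stages. The log2 ratios in fetal liver were 0.26, 0.16, 0.02 and 0.29 in Fr.B/C and 3.64, 2.91, 3.70 and 3.40 in Fr.A. In bone marrow they were 0.72, 0.54, 0.89 and 0.68 in Fr.B/C and 3.76, 4.32, 3.54 and 3.05 in Fr.A. The stages did not overlap in either tissue, as for 23.9% of all probes in fetal liver and 29.2% in bone marrow in either direction. The Flt3 spot of fetal liver Fr.B/C was near the limit of detection, well above background on 3 of 4 arrays at intensities of 71.1 to 101. Flt3 fell by 3.23 ± 0.21 (SE, adjusted p = 2.49e-08) in fetal liver Fr.B/C, 9.37-fold, and by 2.96 ± 0.21 (SE, adjusted p = 4.56e-08) in bone marrow Fr.B/C, 7.78-fold. These steps differed by -0.27 ± 0.30 (SE, adjusted p = 0.674), which did not pass, nor did the larger differences of -1.69 (adjusted p = 0.145) with the scanner software's processed signals and -1.23 (adjusted p = 0.123) in the authors' deposited table. On arrays 3 and 4 alone the difference passed (-0.88, adjusted p = 0.0103), and on arrays 1 and 2 it was 0.35 (adjusted p = 0.698). Those fits hold 2 arrays per group, which may be repeats of 1 sort, so their p-values may not measure the spread between sorts. The size of the fetal liver fall depended on the treatment of dim signals, and it was -5.02 (adjusted p = 1.12e-06) with the processed signals.

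Between the tissues Flt3 passed in neither stage. In Fr.A the difference was -0.25 ± 0.21 (SE, adjusted p = 0.422), with fetal liver at a mean of 3.41 ± 0.36 and bone marrow at 3.67 ± 0.53 (SD, n = 4 each). Its sign was not stable, at 0.53 (adjusted p = 0.404) with the processed signals and 0.01 without bone marrow Fr.A array 2. In Fr.B/C it was -0.52 ± 0.21 (SE, adjusted p = 0.0792), with all 4 fetal liver arrays below all 4 bone marrow arrays, a gap that 29.2% of probes showed in one direction or the other. The order of the groups was bone marrow Fr.A, fetal liver Fr.A, bone marrow Fr.B/C and fetal liver Fr.B/C from the highest mean down, and the arrays of the highest pair overlapped.

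Kit transcript was high relative to the common reference at both stages. The log2 ratios in fetal liver were 4.44, 4.41, 4.51 and 4.43 in Fr.B/C and 4.66, 4.44, 5.37 and 5.28 in Fr.A. In bone marrow they were 3.15, 3.37, 3.42 and 3.23 in Fr.B/C and 4.28, 4.69, 3.73 and 3.24 in Fr.A. The Fr.B/C arrays of each tissue lay close together, while the Fr.A arrays spread more widely in both. The step was -0.49 ± 0.26 (SE, adjusted p = 0.211) in fetal liver and -0.69 ± 0.26 (SE, adjusted p = 0.0524) in bone marrow, and neither passed. Paired within sorts, the bone marrow fall passed (-0.69, adjusted p = 0.0154, limma with the sort as a block), but it did not with arrays 1 and 2, and arrays 3 and 4, averaged (adjusted p = 0.264). Fr.B/C was below Fr.A in 4 of 4 sorts of each tissue, with differences of -0.86 to -0.02 in fetal liver and -1.32 to -0.004 in bone marrow. The difference between the steps was 0.20 ± 0.36 (SE, adjusted p = 0.806). On arrays 1 and 2 alone it was 1.10 (adjusted p = 0.0497), and on arrays 3 and 4 alone it was -0.70 (adjusted p = 0.0069). Both values depend on the arbitrary match of array numbers across the tissues. All fits on 1 array pair hold 2 arrays per group, which may be repeats of 1 sort. The steps differed in size between the array pairs: in fetal liver the step was -0.12 (adjusted p = 0.693) on arrays 1 and 2 and -0.85 (adjusted p = 0.000161) on arrays 3 and 4, and in bone marrow it was -1.22 (adjusted p = 0.00147) and -0.16 (adjusted p = 0.277) on the same arrays.

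Fetal liver carried more Kit transcript than bone marrow at both stages. The difference was 0.95 ± 0.26 (SE, adjusted p = 0.0111) in Fr.A, 1.94-fold, and 1.16 ± 0.26 (SE, adjusted p = 0.00336) in Fr.B/C, 2.23-fold. In Fr.B/C all 4 fetal liver arrays lay above all 4 bone marrow arrays, a gap that 29.2% of all probes showed in one direction or the other. The difference was similar in both array pairs, 1.17 (adjusted p = 0.00226) on arrays 1 and 2 and 1.14 (adjusted p = 2.6e-05) on arrays 3 and 4. In Fr.A the groups overlapped. Matched by array number, which is arbitrary across the tissues, the difference was 0.07 (adjusted p = 0.803) on arrays 1 and 2 and 1.84 (adjusted p = 1e-06) on arrays 3 and 4. With each pair of arrays averaged to 1 sample, neither tissue difference of Kit passed (adjusted p = 0.147 for Fr.A and 0.0950 for Fr.B/C). The Fr.A call was also lost with median centring in place of loess (0.73 (adjusted p = 0.0623)).

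Erythroid precursors also express Kit, and erythroid transcripts moved with tissue and, in fetal liver, with the array pair. Over 14 measured erythroid markers the mean log2 ratio in fetal liver was 1.06 to 1.12 in Fr.B/C and 0.89 to 0.95 in Fr.A on arrays 1 and 2, and 2.09 to 2.14 in Fr.B/C and 2.36 to 2.41 in Fr.A on arrays 3 and 4. In bone marrow it was -0.24 to 0.08 in Fr.B/C and -0.12 to -0.04 in Fr.A over all arrays. Their summed intensity was 13231 to 35385 in fetal liver Fr.B/C and 6399 to 39134 in fetal liver Fr.A, against 6164 to 10541 in bone marrow Fr.B/C and 4180 to 4743 in bone marrow Fr.A. Of the 14 markers, 12 were higher in fetal liver at stage Fr.A and 10 at stage Fr.B/C, and none was lower. Of all probes, 12.4% were higher at stage Fr.A and 13.4% at stage Fr.B/C. Klf1, the erythroid master regulator, was higher by 2.63 ± 0.45 (SE, adjusted p = 0.000389) in fetal liver Fr.A and by 2.52 ± 0.45 (SE, adjusted p = 0.000625) in fetal liver Fr.B/C. Slc4a1, the red cell anion exchanger, was higher by 2.41 (adjusted p = 8.57e-05) and 3.26 (adjusted p = 4.89e-06) at the same stages. The part of erythroid RNA in the Kit difference was not tested. Of 10 measured mast cell and basophil markers, other cells that express Kit, 4 were lower in fetal liver than in bone marrow at stage Fr.A and 4 at stage Fr.B/C, and none was higher. The shares of all probes called lower at these stages were 15.7% and 14.7%. Summed mast cell and basophil intensity was 802 to 993 in fetal liver Fr.B/C and 800 to 1448 in fetal liver Fr.A, against 1529 to 2596 in bone marrow Fr.B/C and 1797 to 2126 in bone marrow Fr.A.

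**Figure D2:**
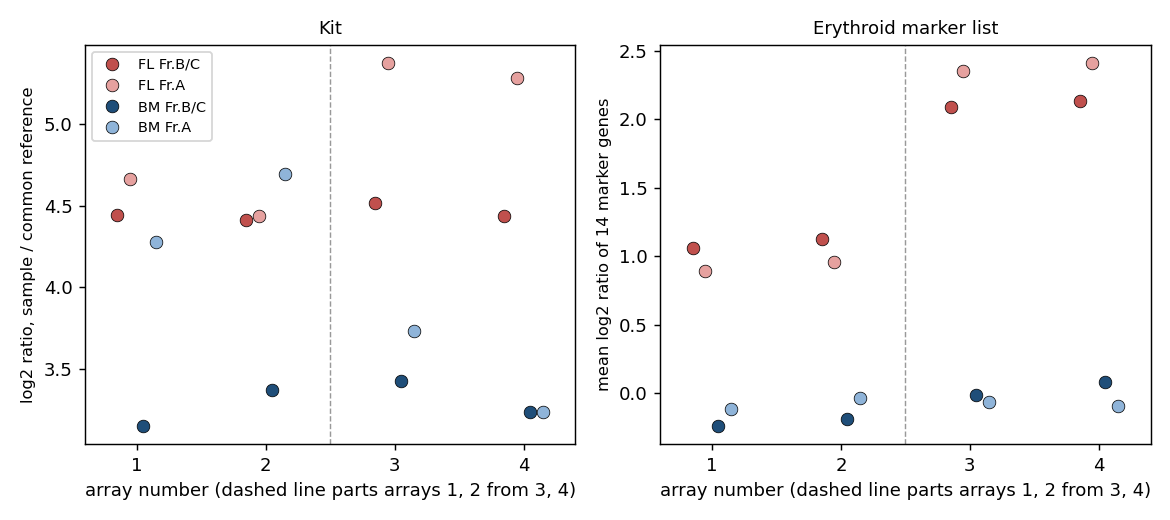
Left, log2 ratio of Kit by array number; right, mean log2 ratio of 14 erythroid marker genes by array number; red shades are fetal liver, blue shades bone marrow, dark shades Fr.B/C and light shades Fr.A, each point is 1 array, and the dashed line parts arrays 1 and 2 from arrays 3 and 4. Fetal liver and bone marrow Fr.A differ in Kit on arrays 3 and 4 but hardly on arrays 1 and 2, though array numbers match nothing across the tissues. Kit of bone marrow Fr.A is 4.28 and 4.69 on arrays 1 and 2 and 3.73 and 3.24 on arrays 3 and 4. Kit of fetal liver Fr.B/C is 4.41 to 4.51 on all 4 arrays. The erythroid markers of fetal liver stand near 1 on arrays 1 and 2 and above 2 on arrays 3 and 4 at both stages.

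Csf1r was highest in fetal liver Fr.A. At the leading probe, the log2 ratios in fetal liver were 0.41, 0.24, 0.68 and 0.54 in Fr.B/C and 3.30, 2.93, 3.12 and 3.01 in Fr.A. In bone marrow they were 0.05, 0.22, 0.46 and 0.40 in Fr.B/C and 1.12, 1.54, 1.50 and 1.14 in Fr.A. Every fetal liver Fr.A array lay above every array of the other groups, bone marrow Fr.A came next without overlap, and the Fr.B/C groups overlapped each other. In Fr.A, fetal liver exceeded bone marrow by 1.77 ± 0.13 (SE, adjusted p = 1.07e-07), 3.41-fold, and the 4 against 4 arrays did not overlap, as for 25.3% of all probes. In Fr.B/C the difference was 0.19 ± 0.13 (SE, adjusted p = 0.326). Csf1r fell in Fr.B/C by 2.62 ± 0.13 (SE, adjusted p = 1.48e-09) in fetal liver, 6.17-fold, and by 1.04 ± 0.13 (SE, adjusted p = 1.85e-05) in bone marrow, 2.06-fold. The steps differed by -1.58 ± 0.19 (SE, adjusted p = 0.000105), a call that was lost when arrays 1 and 2, and arrays 3 and 4, were averaged to 1 sample (-1.58, adjusted p = 0.0591). The tissue difference in Fr.A was 1.79 (adjusted p = 0.000755) on arrays 1 and 2 and 1.75 (adjusted p = 5.42e-07) on arrays 3 and 4.

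The other Csf1r probes were dimmer. The second probe, with sample intensities of 65.7 to 163, kept the order of the leading one on a compressed scale. Its log2 ratios in fetal liver were -0.03, 0.02, -0.02 and 0.16 in Fr.B/C and 1.01, 0.76, 0.73 and 0.88 in Fr.A. In bone marrow they were -0.01, -0.11, -0.06 and 0.04 in Fr.B/C and 0.27, 0.33, 0.22 and 0.24 in Fr.A. Fetal liver Fr.A again stood above all other arrays. At this probe fetal liver exceeded bone marrow in Fr.A by 0.58 ± 0.08 (SE, adjusted p = 5.32e-05), the steps were -0.81 ± 0.08 (SE, adjusted p = 1.78e-06) in fetal liver and -0.30 ± 0.08 (SE, adjusted p = 0.00844) in bone marrow, and they differed by -0.51 ± 0.11 (SE, adjusted p = 0.0121). With the array pairs averaged in that way, its bone marrow step (adjusted p = 0.113) and the difference between its steps (adjusted p = 0.335) no longer passed. Its values grew with the scanner software's processed signals, to 1.19 (adjusted p = 0.00063) for the tissue difference in Fr.A and -1.89 (adjusted p = 9.31e-06) for the fetal liver step. The dimmest probe, at 66.0 to 125 and well above background on 12 of 16 arrays, had group means of 0.04 ± 0.16 and 0.14 ± 0.14 in fetal liver Fr.B/C and Fr.A, and of -0.02 ± 0.24 and 0.14 ± 0.14 in bone marrow Fr.B/C and Fr.A (SD, n = 4 each). Its groups overlapped throughout and it passed in no comparison, so 2 of the 3 probes carried the result.

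**Figure D3:**
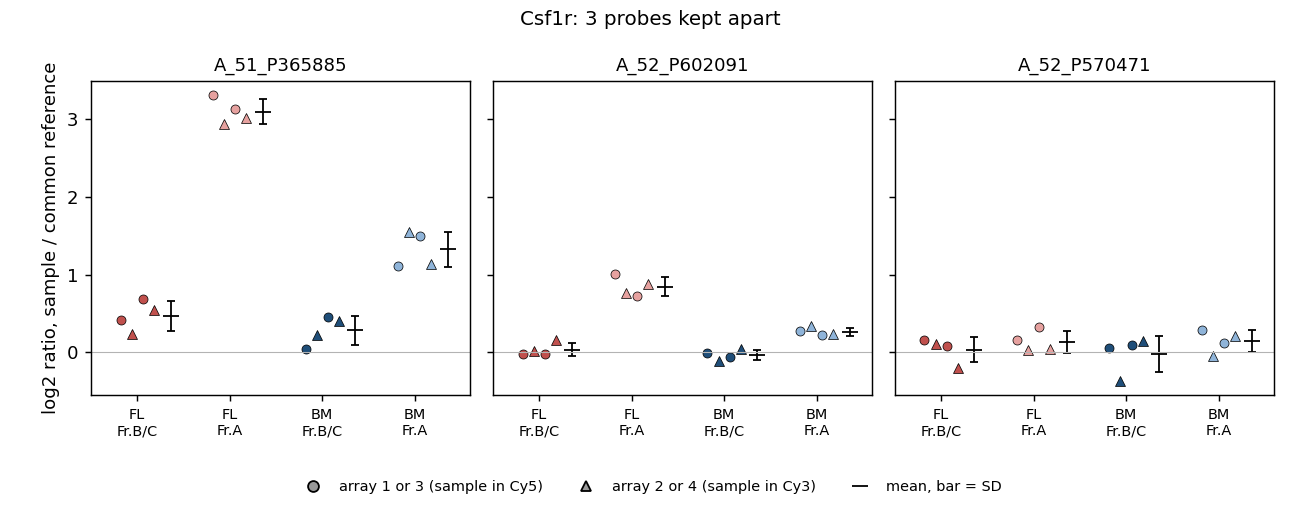
Log2 ratio of sample over common reference (vertical axis) at the 3 Csf1r probes, from the leading to the dimmest (left to right), by group and array; circles are Cy5 and triangles Cy3 samples, and bars give the mean and SD of 4 arrays. Fetal liver Fr.A stands above the other groups at the leading probe (mean 3.09) and, on a smaller scale, at the second (mean 0.85), and the groups overlap at the dimmest.

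Since Csf1r marks mononuclear phagocytes, the markers of those cells were read beside it. Of 14 measured macrophage markers, 5 were higher and 2 lower in fetal liver Fr.A than in bone marrow Fr.A, against 12.4% and 15.7% of all probes. Their summed intensity was 1327 to 2435 in fetal liver Fr.A and 1998 to 2477 in bone marrow Fr.A, and their mean log2 ratio was 0.05 to 0.40 and 0.08 to 0.19 in those groups. The complement gene C1qc was higher by 1.03 ± 0.18 (SE, adjusted p = 0.000399) and Adgre1 (F4/80) by 0.74 ± 0.13 (SE, adjusted p = 0.000453) in fetal liver, while the scavenger receptor Cd163 was lower by 2.79 ± 0.12 (SE, adjusted p = 3.4e-10). Between the stages 0 rose and 2 fell in fetal liver Fr.B/C and 0 rose and 3 fell in bone marrow Fr.B/C, with fetal liver steps of -0.31 (adjusted p = 0.243) for C1qc and -0.28 (adjusted p = 0.148) for Adgre1. For these steps, 10% of all probes rose and 12.2% fell in fetal liver, and 14.2% rose and 17.2% fell in bone marrow. Of the marker list, Mertk and Vsig4 failed the filter.

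Of 15 measured monocyte and granulocyte markers, 3 were higher and 7 lower in fetal liver Fr.A than in bone marrow Fr.A, beside the same shares of 12.4% and 15.7%. Their summed intensity was 43322 to 76555 in fetal liver Fr.A and 133202 to 205840 in bone marrow Fr.A. The Fc receptor Fcgr1 was higher by 1.35 ± 0.12 (SE, adjusted p = 8.37e-07), and its step was lower in fetal liver than in bone marrow by 1.01 (adjusted p = 0.0023). Lysozyme (Lyz2) was lower by 2.05 ± 0.21 (SE, adjusted p = 3.77e-06). Of 13 measured dendritic cell markers (Flt3 left out), 5 were higher and 2 lower in fetal liver Fr.A, and 1 rose and 8 fell in fetal liver Fr.B/C and 1 rose and 7 fell in bone marrow Fr.B/C. For these steps, 10% of all probes rose and 12.2% fell in fetal liver, and 14.2% rose and 17.2% fell in bone marrow. Their summed intensity was 13190 to 17045 in fetal liver Fr.B/C and 36650 to 49904 in fetal liver Fr.A, against 18327 to 25282 in bone marrow Fr.B/C and 30236 to 38520 in bone marrow Fr.A. The chemokine receptor Ccr9, carried by plasmacytoid dendritic cells, was higher in fetal liver Fr.A by 1.98 ± 0.14 (SE, adjusted p = 8.53e-08) and fell by 3.75 (adjusted p = 9.83e-11) in fetal liver Fr.B/C and 2.10 (adjusted p = 2.95e-08) in bone marrow Fr.B/C. The integrin Itgax (CD11c) was higher in fetal liver Fr.A by 0.90 (adjusted p = 7.89e-06) and fell by 3.04 (adjusted p = 3.49e-11) in fetal liver Fr.B/C and 2.34 (adjusted p = 2.21e-10) in bone marrow Fr.B/C. Ccr9 and Itgax share with Csf1r a higher level in fetal liver Fr.A and a fall at Fr.B/C. Not all dendritic cell markers did: of the 13, 5 were higher in fetal liver Fr.A, 2 were lower and 6 did not pass there. The part of such cells in the Csf1r and Flt3 values was not tested.

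Prom1 was not detected at the depth of these arrays. Its 2 probes read 55.5 to 125 in the sample channel, and they were well above background on 0 and 1 of 16 arrays, the 1 being of bone marrow Fr.A. Their log2 ratios lay between -0.08 and 0.18 on every array. Without the filter, over 41174 probes, the 2 probes differed by at most 0.06 in size in each of the 4 comparisons of groups, with adjusted p from 0.594 to 0.994. A level below the detection limit would give the same values.

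**Figure D4:**
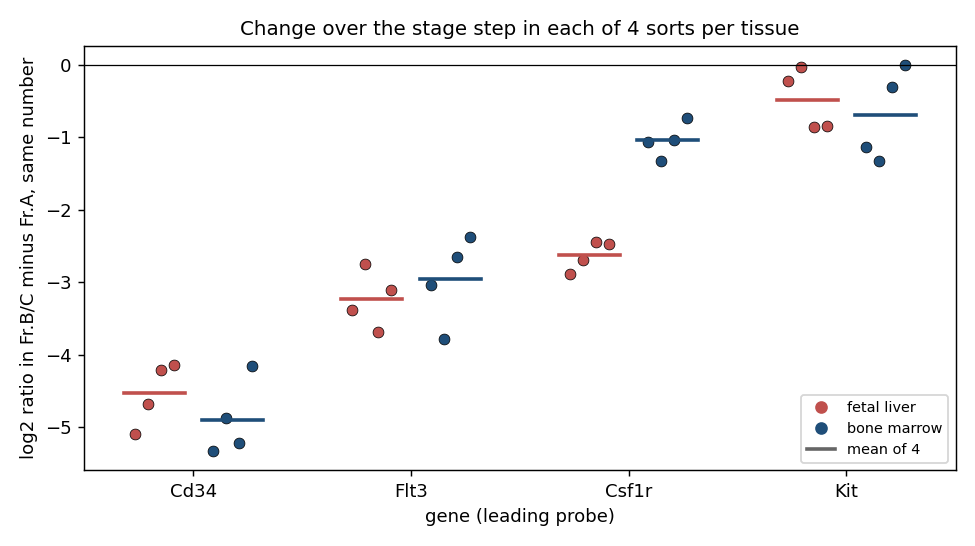
Difference in log2 ratio between the Fr.B/C and the Fr.A sample of the same number (vertical axis) for Cd34, Flt3, Csf1r and Kit, 1 point per sort, with fetal liver in red left of bone marrow in blue and a line at the mean of 4. Cd34, Flt3 and Csf1r fell in every sort, with Cd34 at -4.14 or lower. All Kit points lie below the zero line but reach up to -0.004, and the Kit step passed in neither tissue. Csf1r is the gene whose fetal liver points (-2.89 to -2.44) lie apart from those of bone marrow (-1.32 to -0.74).

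The falls held within single sorts. Taking the Fr.B/C sample minus the Fr.A sample of the same number, Cd34 changed by -5.09 to -4.14 in the 4 fetal liver sorts and by -5.33 to -4.16 in the 4 bone marrow sorts. Flt3 changed by -3.68 to -2.75 in fetal liver sorts and by -3.79 to -2.37 in bone marrow sorts. The ranges of the tissues overlapped for both genes. Csf1r changed by -2.89 to -2.44 in fetal liver sorts and by -1.32 to -0.74 in bone marrow sorts, ranges that did not meet. The share of all probes with such a gap between sorts was not counted. Across all 16 arrays, the leading probes of Flt3 and Cd34 correlated at r = 0.96 and those of Csf1r and Cd34 at r = 0.84. Kit correlated with Flt3 at r = 0.39, with Cd34 at 0.50 and with Csf1r at 0.67. The arrays share 4 groups and 1 reference, so these values describe the group pattern and were not tested.

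Of the 4 ligands of these receptors, Kitl (stem cell factor) failed the filter. Flt3l, the Flt3 ligand, had log2 ratios of -0.62 ± 0.11 in fetal liver Fr.A and -0.41 ± 0.18 in bone marrow Fr.A (SD, n = 4 each). It was lower in fetal liver by 0.21 (adjusted p = 0.0467) in Fr.A and 0.25 (adjusted p = 0.0207) in Fr.B/C, and its step was 0.02 (adjusted p = 0.891) in fetal liver and 0.06 (adjusted p = 0.604) in bone marrow. Csf1, the ligand of Csf1r, moved against its receptor: it rose in Fr.B/C by 0.65 ± 0.12 (SE, adjusted p = 0.00063) in fetal liver and by 0.32 ± 0.12 (SE, adjusted p = 0.0474) in bone marrow. Il34, the other Csf1r ligand, was near background and passed in no comparison, with differences from -0.13 to 0.03 between groups. All 3 measured ligands were dim. Their summed intensity was 272 to 344 in fetal liver Fr.B/C and 215 to 314 in fetal liver Fr.A. In bone marrow it was 308 to 580 in Fr.B/C and 330 to 389 in Fr.A. On each array 2 to 3 of them were well above background.

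Among the relatives, Pdgfrb, the platelet-derived growth factor receptor beta of the same kinase family, fell in Fr.B/C by 1.02 ± 0.20 (SE, adjusted p = 0.00163) in fetal liver and by 1.74 ± 0.20 (SE, adjusted p = 9.17e-06) in bone marrow. Its group means were -1.75 ± 0.46 and -0.73 ± 0.18 in fetal liver Fr.B/C and Fr.A, and -1.60 ± 0.28 and 0.14 ± 0.34 in bone marrow Fr.B/C and Fr.A (SD, n = 4 each). In Fr.A it was lower in fetal liver by 0.86 (adjusted p = 0.00482), the side opposite to Csf1r and Kit. Pdgfra failed the filter. Podxl, a sialomucin of the CD34 family, passed in no comparison, with differences from -0.15 to 0.15. Its probe was dim, at 69.6 to 82.0 in fetal liver Fr.B/C and 64.0 to 83.5 in fetal liver Fr.A. In bone marrow it read 67.2 to 151 in Fr.B/C and 73.2 to 104 in Fr.A. Only in bone marrow Fr.A was Podxl well above background on every array. Podxl2 of that family and Prom2, the relative of Prom1, failed the filter.

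Of 32 adaptors, kinases and effectors that act below these receptors, 30 were measured. In Fr.B/C 3 rose and 7 fell in fetal liver, with a median difference of -0.06, and 10 rose and 8 fell in bone marrow, with a median of 0.14. Over all probes 10% were higher and 12.2% lower in fetal liver Fr.B/C, 14.2% and 17.2% in bone marrow Fr.B/C, and the median over all probes was -0.00 in fetal liver and -0.03 in bone marrow. Tyrobp (DAP12), an adaptor that works with Csf1r in macrophages, fell by 2.82 ± 0.21 (SE, adjusted p = 9.9e-08) in fetal liver and 2.21 ± 0.21 (SE, adjusted p = 1e-06) in bone marrow. Its levels in Fr.A were 4.98 ± 0.28 in fetal liver and 4.83 ± 0.33 in bone marrow (SD, n = 4 each), a difference of 0.15 (adjusted p = 0.649). Pik3r1, a regulatory subunit of phosphatidylinositol 3-kinase, fell by 0.91 (adjusted p = 1.58e-05) in fetal liver and 1.67 (adjusted p = 1.88e-08) in bone marrow. Plcg2, a phospholipase, fell by 0.99 (adjusted p = 4.3e-05) and 0.81 (adjusted p = 0.000196) in the same tissues. Crkl, an adaptor, rose by 0.98 (adjusted p = 8.25e-06) in bone marrow, with 0.10 (adjusted p = 0.6) in fetal liver, and its steps differed by -0.88 (adjusted p = 0.00382).

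Between the tissues, 2 of the 30 were higher and 6 lower in fetal liver Fr.A, and 2 and 9 in fetal liver Fr.B/C. Of all probes, 12.4% were higher and 15.7% lower in fetal liver Fr.A, and 13.4% and 14.7% in fetal liver Fr.B/C. Stat3 was lower in fetal liver by 1.10 (adjusted p = 8.67e-06) in Fr.A and 0.77 (adjusted p = 0.000283) in Fr.B/C. Stat5b, a transducer of Kit and Flt3 signals, was lower in fetal liver Fr.A by 0.78 (adjusted p = 0.000617). The small GTPase Nras was higher in fetal liver by 0.92 (adjusted p = 0.000114) in Fr.A and 0.82 (adjusted p = 0.000371) in Fr.B/C. Vav1, an exchange factor, was lower in fetal liver Fr.B/C by 0.99 (adjusted p = 0.000227).

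Of 21 genes that dampen receptor signals, 18 were measured. In Fr.B/C 3 rose and 5 fell in fetal liver (median -0.04) and 3 rose and 4 fell in bone marrow (median 0.01). Over all probes, 10% rose and 12.2% fell in fetal liver, and 14.2% rose and 17.2% fell in bone marrow. Dok2, an adaptor that restrains Ras signalling in myeloid cells, fell by 2.58 ± 0.11 (SE, adjusted p = 2.13e-10) in fetal liver and 3.67 ± 0.11 (SE, adjusted p = 4.25e-12) in bone marrow. Its log2 ratios were -0.67 ± 0.11 and 1.92 ± 0.16 in fetal liver Fr.B/C and Fr.A, and -1.07 ± 0.12 and 2.60 ± 0.22 in bone marrow Fr.B/C and Fr.A (SD, n = 4 each). Grb7 and Grb10, adaptors of 1 family, rose at Fr.B/C. Grb7 rose by 1.95 (adjusted p = 1.22e-05) in fetal liver and 4.55 (adjusted p = 1.1e-09) in bone marrow, and the steps differed by -2.59 (adjusted p = 0.000186). Grb10, an imprinted gene whose product binds Kit, rose by 1.19 (adjusted p = 2.41e-05) in fetal liver and 1.11 (adjusted p = 3.32e-05) in bone marrow. It was higher in fetal liver by 2.25 ± 0.15 (SE, adjusted p = 2.92e-08) in Fr.A and 2.33 ± 0.15 (SE, adjusted p = 1.69e-08) in Fr.B/C. Between the tissues 3 of 18 were higher and 8 lower in fetal liver Fr.A, and 4 and 7 in fetal liver Fr.B/C. The shares of all probes were 12.4% higher and 15.7% lower in Fr.A, and 13.4% and 14.7% in Fr.B/C. Inpp5d (SHIP1), a phosphatase that opposes phosphatidylinositol 3-kinase, was lower in fetal liver Fr.A by 0.62 (adjusted p = 0.00401).

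Of 16 transcription factors known to act on one or more of these genes, 15 were measured. In Fr.B/C 2 rose and 7 fell in fetal liver (median -0.51) and 3 rose and 8 fell in bone marrow (median -0.25). Over all probes, 10% rose and 12.2% fell in fetal liver, and 14.2% rose and 17.2% fell in bone marrow. Cebpb, a myeloid factor, fell in both, with differences of -2.12 (adjusted p = 9.96e-07) in fetal liver and -2.31 (adjusted p = 2.75e-07) in bone marrow. Hoxa9, an activator of Flt3, fell by 1.32 (adjusted p = 1.01e-06) and 1.45 (adjusted p = 2.87e-07) in those tissues, and Ikzf1 (Ikaros) by 1.40 (adjusted p = 0.000128) and 1.65 (adjusted p = 1.78e-05). Ebf1, the B-lineage factor, rose by 0.54 (adjusted p = 0.00477) in fetal liver and 0.97 (adjusted p = 2.22e-05) in bone marrow. Spi1 (PU.1), which drives Csf1r in macrophages, fell by 0.92 ± 0.09 (SE, adjusted p = 1.5e-06) in fetal liver and 0.25 ± 0.09 (SE, adjusted p = 0.0406) in bone marrow, and as for Csf1r the fetal liver step was the larger one, by -0.67 (adjusted p = 0.00423). Its levels were -0.04 ± 0.13 and 0.88 ± 0.09 in fetal liver Fr.B/C and Fr.A, and 0.40 ± 0.08 and 0.66 ± 0.15 in bone marrow Fr.B/C and Fr.A (SD, n = 4 each). In Fr.A, the stage where the tissues differed in Csf1r, Spi1 differed by 0.23 (adjusted p = 0.0705).

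Between the tissues, 2 of 15 factors were higher and 5 lower in fetal liver Fr.A, and 2 and 5 in fetal liver Fr.B/C. The shares of all probes were 12.4% higher and 15.7% lower in Fr.A, and 13.4% and 14.7% in Fr.B/C. Myb, which sustains Kit and Cd34 transcription in progenitors, was lower in fetal liver by 1.08 (adjusted p = 1.65e-06) in Fr.A and 0.73 (adjusted p = 9.88e-05) in Fr.B/C. Tal1, a stem cell and erythroid factor that acts on Kit, was higher in fetal liver by 1.21 (adjusted p = 0.00728) in Fr.A and 1.87 (adjusted p = 0.000303) in Fr.B/C. Runx1 was higher in fetal liver by 0.65 (adjusted p = 0.00278) in Fr.A and 0.52 (adjusted p = 0.0134) in Fr.B/C.

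Of 24 other progenitor surface genes, 20 were measured. In Fr.B/C 3 rose and 10 fell in fetal liver (median -0.45) and 2 rose and 10 fell in bone marrow (median -0.41). The shares of all probes were 10% rising and 12.2% falling in fetal liver, and 14.2% and 17.2% in bone marrow. Like Cd34 and Flt3, Ly6d, a marker of B-cell-biased lymphoid progenitors, fell in both tissues, with steps of -3.36 (adjusted p = 1.09e-08) in fetal liver and -3.49 (adjusted p = 5.16e-09) in bone marrow. Itgb7, a homing integrin, fell with steps of -2.41 (adjusted p = 1.14e-09) and -3.93 (adjusted p = 5.16e-12) in those tissues. Bst1 (BP-3), a surface enzyme of early B cells, rose by 2.33 (adjusted p = 3.6e-08) in fetal liver and 2.47 (adjusted p = 1.39e-08) in bone marrow.

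In both stages 10 of the 20 surface genes were lower and 2 higher in fetal liver than in bone marrow, with a median of -0.47 at stage Fr.A and one of -0.39 at stage Fr.B/C. Of all probes, 15.7% were lower and 12.4% higher in Fr.A, and 14.7% and 13.4% in Fr.B/C. Ly6d had a log2 ratio of 1.08 ± 0.45 in fetal liver Fr.A and 4.57 ± 0.36 in bone marrow Fr.A (SD, n = 4 each), a difference of -3.49 (adjusted p = 7.64e-09). Itgb7 was lower in fetal liver Fr.A by 1.95 (adjusted p = 1.1e-08) and Ly6a (Sca-1) by 1.29 (adjusted p = 3.98e-07). Cd93 (AA4.1) and Cd48, a SLAM family protein, differed in Fr.B/C by -1.61 (adjusted p = 3.15e-08) and -1.61 (adjusted p = 4.28e-09), lower in fetal liver.

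**Figure D5:**
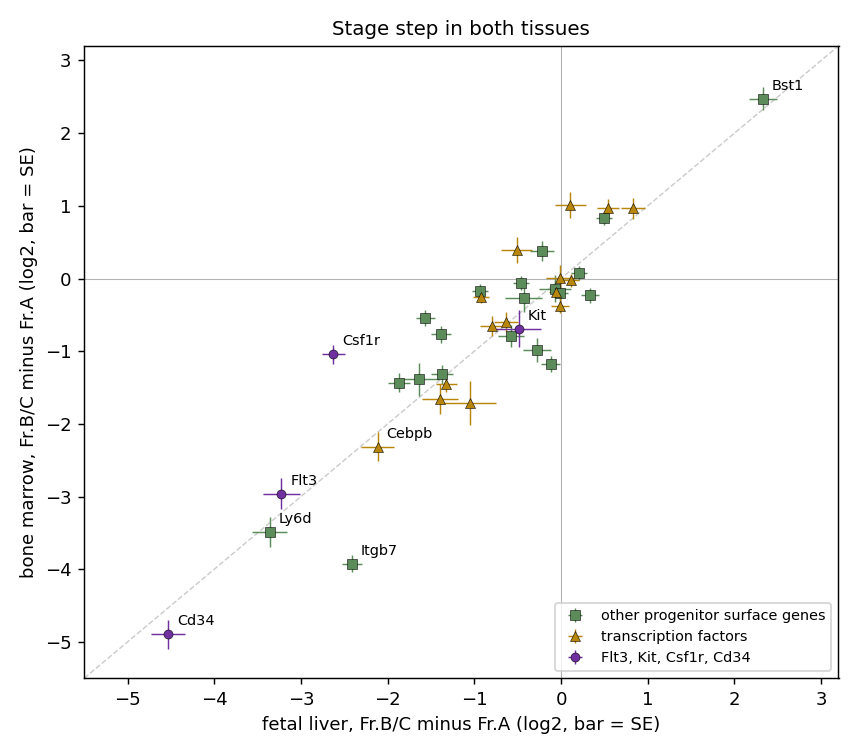
Difference in log2 ratio between Fr.B/C and Fr.A in fetal liver (horizontal axis) and in bone marrow (vertical axis) for Flt3, Kit, Csf1r and Cd34 (purple circles), 20 other progenitor surface genes (green squares) and 15 transcription factors (gold triangles), with bars of 1 SE; the dashed line marks equal steps. Cd34, Flt3 and Ly6d lie near the line with large falls in both tissues, Csf1r lies above it at -2.62 and -1.04, and Itgb7 lies below it at -2.41 and -3.93.

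The genes whose pattern over the 16 arrays was most like each receptor were taken from 2127 genes with group means spanning at least 1 log2 unit, by Pearson's r after removal of the dye effect. For Flt3 they were the prostaglandin receptor Ptger2 (r = 0.99), Depp1 (r = 0.99) and the prostaglandin receptor Ptger3 (r = 0.99). For Cd34 they were Slc35d3 (r = 0.99), Tmem51 (r = 0.99) and the short-chain fatty acid receptor Ffar2 (r = 0.99). For Csf1r they were cyclin D1 (Ccnd1, r = 0.99), Olfm1 (r = 0.98) and the purinergic receptor P2ry12 (r = 0.98). Kit had looser matches, Armcx4 (r = 0.94), the mitochondrial chaperone Hspd1 (r = 0.92) and Peg12 (r = 0.92). P2ry12, a gene known from microglia and platelets, was likewise highest in fetal liver Fr.A and next in bone marrow Fr.A, with mean log2 ratios of -0.11 and 3.13 in fetal liver Fr.B/C and Fr.A, and of -0.06 and 1.14 in bone marrow Fr.B/C and Fr.A. With 4 groups, r mostly restates which groups are high, and it is given as a description.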

How the data were processed

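RNA of 16 sorted samples was hybridised to 2-colour Agilent arrays, each against a common reference. Per the file headers, the spot intensity values come from Agilent's Feature Extraction 8.5.1.1. The authors' deposited table holds log2 ratios of sample over reference, with array medians of -0.00731 to 0.0202. The submitters' processing notes name limma without a version and no further step, and its values correlated with those computed here at r = 0.951 to 0.965. From the intensity values, background was corrected with normexp (offset 50), arrays were normalised by loess, and spots of 1 probe were averaged (limma 3.58.1, R 4.3.3). The sample was in Cy5 on arrays 1 and 3 and in Cy3 on arrays 2 and 4, and every ratio was turned to sample over reference. Probes were kept when well above background on 3 of 4 arrays of any group and usable on 12 arrays. Group means and a dye term were fitted over all 16 arrays (11 residual degrees of freedom), with Benjamini-Hochberg adjustment over 27522 probes. The fit was tested on simulated data with independent noise on each array, which does not cover arrays that resemble each other.

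Of 41174 probes, 24399 were named, 22207 of them through accessions in RefSeq's gene table. The named genes were all probes of the members, the ligands and relatives, and from each list up to 4 genes with the smallest adjusted p in a comparison. Members and lists were chosen with earlier results of these data known. The labels state that each sort gave both stages. Deviations of the Fr.B/C and Fr.A arrays of 1 number correlated at 0.254 to 0.528, above 0.1 in 8 of 8 pairs, so the numbers were taken to pair samples, and 6 of 8 Fr.B/C arrays correlated best with their own number. p-values measure the spread between these arrays. Alternatives changed the background correction, the normalization, the filter, the dye term, the block, the probes per gene, the source of values and the arrays used. Results for 3 genes of the lists are not reported here.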

Additional observations from a re-analysis of the deposited data

Results flagged for a closer look

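The step of Csf1r from Fr.A to Fr.B/C differed between the tissues at 2 of its 3 probes, by a test of the difference itself. At the leading probe the fetal liver step minus the bone marrow step was -1.58 log2 units (limma, adjusted p = 0.000105), and the fall was larger in fetal liver. At the second, dimmer probe it was -0.51 (adjusted p = 0.0121). Both calls were lost when arrays 1 and 2, and arrays 3 and 4, were averaged. No array stood apart from the other 3 of its group in any of 24 probe and group sets by Dixon's test, which flags about 1 set in 20 by chance.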

How the results depend on the processing

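The stage falls of Flt3, Csf1r (leading probe) and Cd34 and the higher Csf1r of fetal liver Fr.A kept their direction and call under every alternative run. Their sizes moved by over 1.5 times with the scanner's processed signals for Flt3 in fetal liver (-5.02) and Cd34 (-1.95 in fetal liver, -2.70 in bone marrow). The second Csf1r probe moved in the same setting and in the deposited table, to 1.19 and 1.02 in Fr.A, -1.89 and -1.63 for the fetal liver step and -0.79 and -0.68 for the bone marrow step. For the values that follow the cause was not tested. Flt3 in Fr.A turned to 0.53 (processed signals), 0.10 (deposited table) and 0.26 (arrays 3 and 4). Flt3 in Fr.B/C passed with median centring (-0.55), the deposited table (-1.13) and arrays 3 and 4 (-0.63). The Flt3 difference of steps passed on arrays 3 and 4 (-0.88, adjusted p = 0.0103). It was 0.35 on arrays 1 and 2, -1.69 with processed signals and -1.23 in the deposited table, and passed in none of these. Kit in Fr.A lost its call with median centring (0.73), averaged arrays (0.95) and arrays 1 and 2 (0.066), and in Fr.B/C with averaged arrays (1.16). The fetal liver step of Kit passed on arrays 3 and 4 (-0.85). The bone marrow step of Kit passed without the dye term (-0.69), with a random block of scan sessions (-0.62) and on arrays 1 and 2 (-1.22). The Kit difference of steps passed in each array pair with opposite signs, where the match of array numbers across the tissues is arbitrary. It was 1.10 (adjusted p = 0.0497) on arrays 1 and 2 and -0.70 (adjusted p = 0.0069) on arrays 3 and 4. Csf1r in Fr.B/C was -0.0074 with median centring, and its difference of steps lost its call with averaged arrays (-1.58). Cd34 in Fr.B/C lost its call with median centring (0.36), the deposited table (0.42), no filter (0.57), averaged arrays (0.57), a random block of scan sessions (0.57) and arrays 1 and 2 (0.34).

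With the replicate block the bone marrow step of Kit passed (-0.69) and Cd34 in Fr.B/C did not (0.57), and the block changed no other call of the 4 leading probes. The dimmest Csf1r probe, which never passed, changed sign to 0.075 (processed signals), 0.033 (median centring), 0.012 (deposited table) and 0.017 (arrays 3 and 4) in Fr.A, -0.18 (arrays 3 and 4) in Fr.B/C, 0.040 (arrays 1 and 2) for the fetal liver step and -0.20 (arrays 3 and 4) for the difference of steps. Leaving out 1 array moved Flt3 in Fr.A from -0.45 to 0.011, Flt3 in Fr.B/C from -0.59 to -0.44, the bone marrow step of Kit from -0.95 to -0.42, its difference of steps from -0.065 to 0.46, and Cd34 in Fr.B/C from 0.41 to 0.75. Values that did not pass also moved by over 1.5 times, with ranges of -0.53 to -0.071 for the Flt3 difference of steps, 0.086 to 0.26 for Csf1r in Fr.B/C, 0.051 to 0.29 for Cd34 in Fr.A and 0.21 to 0.55 for the Cd34 difference of steps. The dimmest Csf1r probe ranged from -0.047 to 0.047 in Fr.A, from -0.041 to 0.15 in Fr.B/C and from -0.033 to 0.15 for the difference of steps. Flt3 in Fr.B/C passed without bone marrow Fr.A array 2 or 4, and the bone marrow step of Kit without bone marrow Fr.A array 3 or 4 or fetal liver Fr.A array 2 or 3.

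The probes called over the whole array were 7717 in Fr.A, 7736 in Fr.B/C, 6115 for the fetal liver step, 8640 for the bone marrow step and 1855 for the difference of steps. Median centring gave 4691 in Fr.A and 3227, 4979 and 492 for the steps and their difference. It also moved the share of higher calls to 23.7% against 44.1% in Fr.A, 18.9% against 47.8% in Fr.B/C and 31.6% against 45.1% for the fetal liver step. Averaged arrays gave 2640, 2133, 2091, 3737 and 41 in that order of comparisons, with fewer samples. Arrays 3 and 4 gave 12702 in Fr.A, 11627 in Fr.B/C, 11767 for the fetal liver step and 8871 for the difference of steps. That difference had 4383 calls with the replicate block, 3608 with a random block of scan sessions and 845 on arrays 1 and 2. Signal over background limits Prom1, the dimmest Csf1r probe and Flt3 in fetal liver Fr.B/C, and tissue cannot be told apart from scan session.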

Other observations

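Markers of further cell types were read in the same fits, and their part in the values of Flt3, Kit, Csf1r and Cd34 was not tested. In Fr.A, 6 of 8 measured NK cell markers and 6 of 11 T-lineage markers were lower in fetal liver than in bone marrow and none was higher. Of all probes, 15.7% were lower and 12.4% higher in fetal liver at that stage. Of 6 megakaryocyte markers, cells that carry Kit as well, 2 were higher and none lower in fetal liver Fr.A, with a summed intensity of 1233 to 1920 in fetal liver Fr.A and 720 to 843 in bone marrow Fr.A. Of 6 stromal markers, a source of Kitl in marrow, none was higher and 1 lower in fetal liver Fr.A. Hepatocyte markers were thinly measured, at 4 of 10 listed, and of these none was higher and 2 were lower in fetal liver Fr.A, while 2 were higher and 1 lower in fetal liver Fr.B/C. At stage Fr.B/C, 13.4% of all probes were higher and 14.7% lower in fetal liver. The probes of Alb, Apoa1 and Ttr, abundant liver transcripts, failed the filter.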
